A study of Mus musculus with 15 samples.

Results

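Fc receptors, Fc receptor-like proteins and the adaptors through which immune receptors signal were followed across B cell differentiation and under inhibition of the histone methyltransferase EZH2. The 9 genes described here were chosen by symbol from the 21669 genes with a symbol in the deposited table, and comprise the adaptors *Fcer1g* and *Tyrobp*, the Fcγ receptor genes *Fcgr2b*, *Fcgr1*, *Fcgr3* and *Fcgr4*, and the Fc receptor-like genes *Fcrla*, *Fcrl1* and *Fcrl5*. Of these, 8 passed the filter on expression, which kept 11299 genes, and *Fcgr1* did not.

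Poly(A) RNA was sequenced from wild-type female C57BL/6J mice, 6 to 9 weeks old per the study's methods. Naive B cells (nB) were splenic cells depleted of CD43+ cells on a magnetic column, with no further sort and no culture. The same kind of cells was cultured for 3 days with LPS, IL2 and IL5 and with either the solvent DMSO or 2 µM of the EZH2 inhibitor GSK343, and was then sorted into plasmablasts (Pb, CD138+) and activated B cells (actB, B220+GL7+CD138-). Each of the 5 groups was deposited as 3 libraries. For Pb with GSK343 the labels name IL6 in place of IL5, and if they hold, the effects of the drug and of the cytokine in Pb cannot be told apart.

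Libraries held 19421830 to 26307413 reads in genes. The columns of nB replicates 1 and 2 differed by less than the sampling noise (chi-square per degree of freedom 0.00958, against at least 3.58 for the other pairs within groups) and were counted as 1 library, which left n = 2 for nB and n = 3 elsewhere. The cultured libraries of replicate 2 stood apart from the others of their group, with a chi-square per degree of freedom of 16.7 to 29.7 in actB and 7.64 to 11.4 in Pb, against 3.80 and 6.07 in actB and 3.58 and 3.68 in Pb between replicates 1 and 3. Results for the 9 genes are given without the replicate 2 libraries where that changes a call. Sums of markers fitted the group labels: the 5 B cell markers summed to 3076 to 3204 RPKM in nB, and the 5 plasmablast markers to 214.4 to 231 RPKM in nB, 484.8 to 522.2 RPKM in actB and 3065 to 3215 RPKM in Pb with DMSO. Single markers did not all follow. From nB to actB with DMSO, 3 of the 5 plasmablast markers rose and *Sdc1*, which encodes CD138, fell from 5.17 to 0.665 RPKM, where 40.9% of all genes tested rose and 36.3% fell. The unsorted nB also held myeloid transcripts, given below. Levels are given as RPKM, reads scaled to the length of the gene and the depth of the library. Differences are log2 fold changes of RPKM + 0.25 from limma with their standard errors (SE), which understate the change of genes with low levels, and genes with an adjusted p under 0.05 over all genes tested were called. Since the RNA came from many cells, fewer expressing cells and less RNA per cell cannot be told apart.

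Fc receptors bind the constant part of antibodies and so tie a cell's response to antigen that antibody has already captured. Activating Fcγ receptors have no signalling sequence of their own and pair with a small membrane protein, the Fc receptor γ chain encoded by *Fcer1g*, whose cytoplasmic tail carries an immunoreceptor tyrosine-based activation motif (ITAM) that Src-family kinases phosphorylate and the kinase Syk then binds. *Tyrobp* encodes DAP12, an ITAM adaptor of the same kind that serves receptors of myeloid and NK cells. B cells are known for expressing the inhibitory receptor encoded by *Fcgr2b*, whose tail carries an immunoreceptor tyrosine-based inhibitory motif (ITIM) and recruits phosphatases that dampen the B cell receptor. Fc receptor-like proteins are relatives of these receptors found mainly on B cells.

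The motifs that set the activating adaptor and the inhibitory receptor apart can be read in their coding sequences, from the GENCODE vM1 transcripts of mm9. The stretch of *Fcer1g* is bases 184 to 246 of a coding sequence of 261 bases, and that of *Fcgr2b* is bases 940 to 975 of 1023. Capitals mark the tyrosine and leucine codons of the ITAM and the isoleucine, tyrosine and leucine codons of the ITIM.
Fcer1g ITAM: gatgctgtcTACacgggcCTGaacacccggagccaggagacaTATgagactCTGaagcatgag
Fcgr2b ITIM: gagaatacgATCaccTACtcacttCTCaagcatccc

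The genes lie in few places of the mm9 genome. On chromosome 1, *Fcrla* (chr1:172847707-172857714, Entrez 98752), *Fcgr2b* (chr1:172890689-172906678, Entrez 14130), *Fcgr4* (chr1:172949051-172959892, Entrez 246256), *Fcgr3* (chr1:172981300-172995066, Entrez 14131) and *Fcer1g* (chr1:173159703-173164496, Entrez 14127) follow one another. *Fcrl1* (chr3:87180309-87196055, Entrez 229499), *Fcrl5* (chr3:87239807-87261758, Entrez 329693) and *Fcgr1* (chr3:96086832-96098179, Entrez 14129) lie on chromosome 3, and *Tyrobp* (chr7:31198807-31202596, Entrez 22177) on chromosome 7. No exon of the 9 genes overlapped an exon of another annotated gene. *Fcgr2b* and *Fcgr3* share sequence: 166 windows of 50 bases, 10.1% of those of the annotated coding transcripts of *Fcgr2b* and 10.2% of those of *Fcgr3*, are identical between them. For *Fcgr2b* these transcripts held 1650 windows, where the deposited gene length was 3509 bases. A read of 50 bases from the shared windows cannot by itself be assigned to either gene. The reads were paired, and how often the mate placed them was not tested. The other 7 genes shared no such window with a member.

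**Figure D1:**
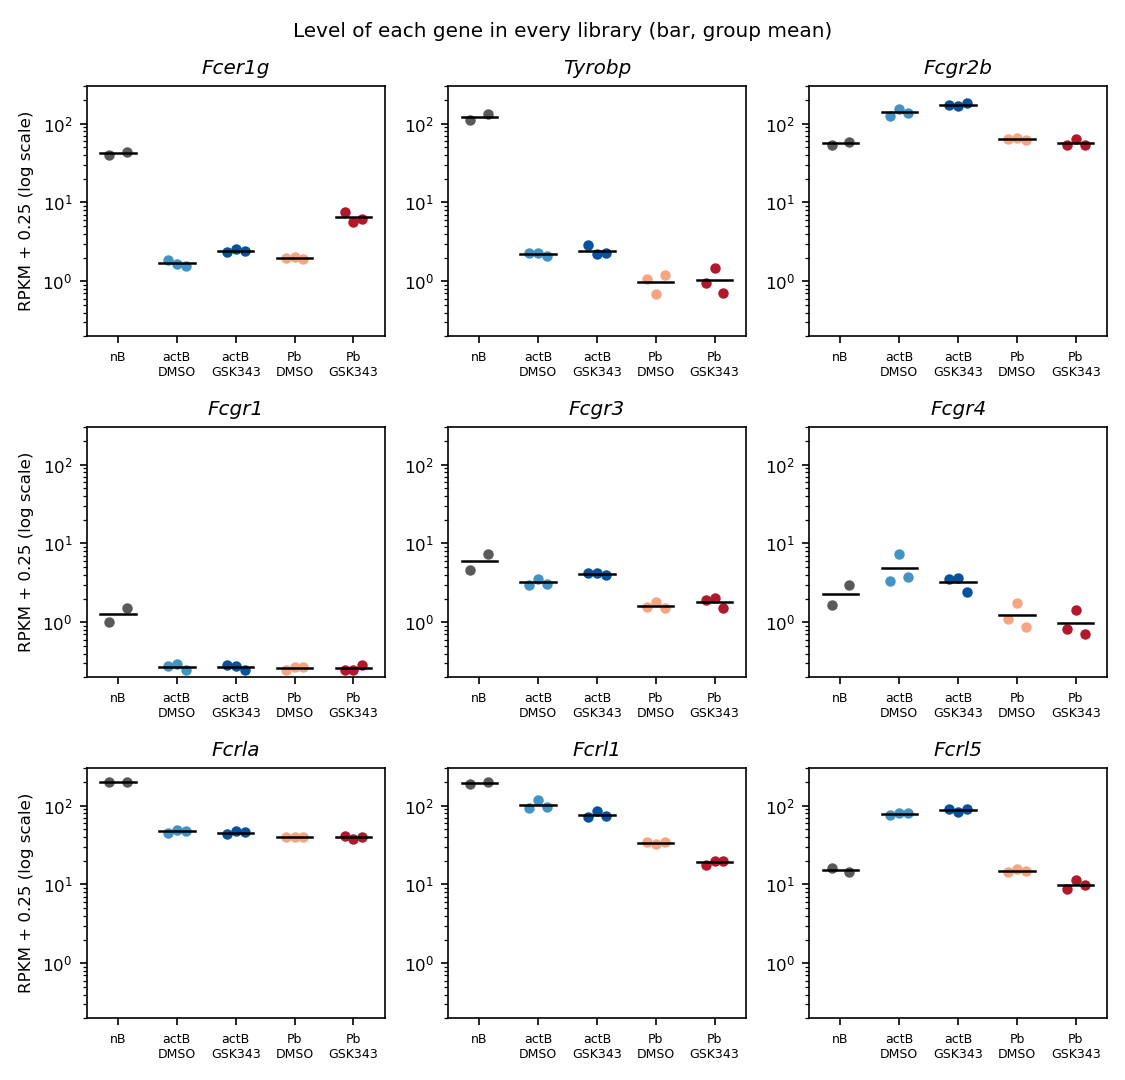
Level of each of the 9 genes as RPKM + 0.25 on a log axis in every library, with 1 point per library and a bar at the group mean; nB has 2 points because replicates 1 and 2 were 1 library. *Fcer1g* fell from 41.7 RPKM in nB to 1.44 RPKM in actB with DMSO and stood at 6.22 RPKM in Pb with GSK343, while *Fcgr2b* and *Fcrl5* were highest in actB.

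In Pb with GSK343 *Fcer1g*, the adaptor of the activating receptors, rose, while the Fc receptor-like genes *Fcrl1* and *Fcrl5* fell. These were 3 of the 8 genes tested, where 12.9% of all genes tested were called in Pb, 7.90% higher and the rest lower. In actB, *Fcer1g* and *Fcgr2b* rose and *Fcrl1* fell, again 3 of 8, where 10.4% of all genes tested were called, 8.20% higher and 2.16% lower. Over the 8 genes the median log2 fold change was 0.14 in actB and -0.09 in Pb, beside 0.03 and 0.0031 over all genes tested. The DMSO and GSK343 libraries did not overlap for 5 of the 8 in actB (*Fcer1g*, *Fcgr2b*, *Fcgr3*, *Fcrl1* and *Fcrl5*), where this held for 25.9% of all genes tested, and for 3 of the 8 in Pb (*Fcer1g*, *Fcrl1* and *Fcrl5*), where it held for 34.1%.

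In Pb, the level of *Fcer1g* was 1.72, 1.78 and 1.68 RPKM with DMSO (replicates 1 to 3) and 7.39, 5.39 and 5.87 RPKM with GSK343. Every GSK343 library stood above every DMSO library, by 4.30, 3.02 and 3.495 times within replicates 1, 2 and 3. The counts behind these levels were 22 to 24 reads per library with DMSO and 71 to 111 reads with GSK343. The means of 1.73 ± 0.053 and 6.22 ± 1.04 RPKM (SD, n = 3) gave a log2 fold change of 1.70 (SE 0.11, adjusted p = 6.16e-06, limma), which was called under all 17 other settings tried (log2 fold change 1.39 to 1.83). Among the genes tested, the group mean with DMSO was at or above that of 14.6% of genes and with GSK343 at or above that of 36.0%.

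In actB the response of *Fcer1g* was smaller. Its level was 1.61, 1.39 and 1.31 RPKM with DMSO and 2.08, 2.34 and 2.13 RPKM with GSK343. The groups did not overlap, but rested on 21 to 25 and 33 to 38 reads. The log2 fold change was 0.53 (SE 0.11, adjusted p = 0.00830, limma), and edgeR on the recovered reads did not call it (adjusted p = 0.0694). The effect in Pb exceeded that in actB by 1.16 on the log2 scale (SE 0.15, 95% confidence interval 0.84 to 1.49, adjusted p = 0.0272, limma), and it was one of 2 members called where 0.248% of all genes tested were called, 0.0974% higher and 0.150% lower. Leaving out 1 library at a time ended that call in 8 of 12 fits, with a log2 difference of 1.04 to 1.26 and an adjusted p of up to 0.105.

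*Tyrobp*, the other ITAM adaptor, was low in the cultures. Its level in Pb was 0.818, 0.433 and 0.935 RPKM with DMSO and 0.696, 1.24 and 0.454 RPKM with GSK343, resting on 5 to 14 reads each. The groups overlapped. The log2 fold change was 0.07 in Pb (95% confidence interval -0.48 to 0.61, adjusted p = 0.909, limma) and 0.13 in actB (-0.41 to 0.68, adjusted p = 0.808), so a change of the size of that of *Fcer1g* in Pb lay outside its interval. The ratio of *Fcer1g* to *Tyrobp* in RPKM was 0.343 ± 0.023 in nB (n = 2), 0.731 ± 0.061 in actB and 2.67 ± 1.26 in Pb with DMSO, and 1.02 ± 0.21 in actB and 9.30 ± 4.43 in Pb with GSK343 (SD, n = 3).

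Both adaptors are abundant in myeloid cells, so the 18 myeloid markers were summed in each library. In Pb the sum was 5.33 to 7.52 RPKM with DMSO and 4.82 to 6.85 RPKM with GSK343. *Cd68* was the only one of the 18 with a mean of at least 1 RPKM there (4.79 and 3.88 RPKM), so the sum mostly followed this gene. Of the 14 markers tested none was called, in either direction, where 12.9% of all genes tested were. The other markers lay so low in Pb that neither the sum nor these tests says much about them. *S100a8*, a neutrophil gene, had no reads in any cultured library, and *Mpo*, a granule enzyme gene, had none in Pb with GSK343. *Csf1r*, the gene of a macrophage growth factor receptor, was at 0.017 RPKM with DMSO and 0.030 RPKM with GSK343, and *Lyz2*, the gene of a lysozyme of myeloid cells, at 0.338 and 0.601 RPKM. Of the 6 markers of mast cells and basophils, *Fcer1a*, *Cpa3* and *Prss34* had no reads in any cultured library and *Mcpt8* had none in Pb. In Pb *Kit*, which encodes the stem cell factor receptor, was at 0.815 RPKM with DMSO (131 to 170 reads) and 0.922 RPKM with GSK343 (113 to 246 reads), and *Ms4a2*, which encodes the β chain of the high-affinity IgE receptor, was at 1.69 and 1.90 RPKM. These were the only 2 of the 6 tested. Both were higher in Pb than in actB with DMSO, where 27.3% of all genes tested were. Neither was called with GSK343 in actB or Pb. In actB the myeloid sum was 10.6 to 12.4 RPKM with DMSO and 15.2 to 20.4 RPKM with GSK343. Of the 14 markers tested 2 were called higher, where 8.20% of all genes tested were. These were *Adgre1*, a macrophage gene, at 0.147 and 0.437 RPKM (log2 fold change 0.79, SE 0.18, adjusted p = 0.0156, limma), and *Itgam*, the gene of the integrin subunit CD11b, which rose from 4.27 to 9.95 RPKM (log2 fold change 1.14, SE 0.19, adjusted p = 0.00376, limma). Without *Itgam* the sum was 6.68 to 7.70 RPKM with DMSO and 6.37 to 8.60 RPKM with GSK343. Most of it was *Cd68* (means of 6.12 and 5.44 RPKM), so it hardly reflects the sparser markers. The part of myeloid transcripts in the changes of *Fcer1g* in actB and Pb was not tested.

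**Figure D2:**
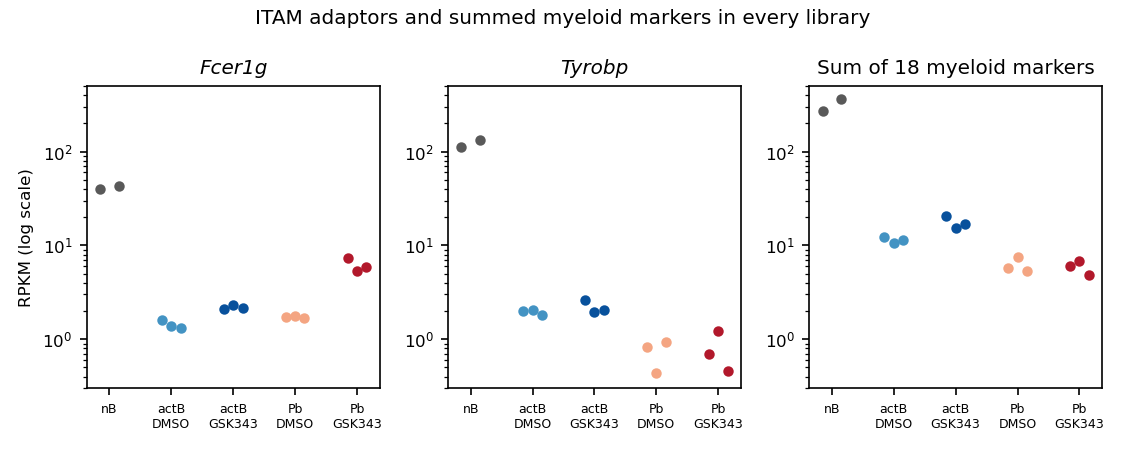
*Fcer1g*, *Tyrobp* and the sum of 18 myeloid markers in RPKM on a log axis, with 1 point per library in each of the 5 groups. In Pb with GSK343 the *Fcer1g* points (5.39 to 7.39 RPKM) stood above those with DMSO (1.68 to 1.78 RPKM), whereas the marker sums overlapped (4.82 to 6.85 and 5.33 to 7.52 RPKM). On average most of these sums was *Cd68* (means of 3.88 RPKM with GSK343 and 4.79 RPKM with DMSO).

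The inhibitory receptor gene *Fcgr2b* was the most abundant of the 9 genes per length in every cultured group. In actB its level was 125.2, 152.9 and 136.7 RPKM with DMSO and 172.3, 167.7 and 179.8 RPKM with GSK343. All GSK343 libraries stood above all DMSO libraries, by 1.38, 1.10 and 1.31 times within replicates. The log2 fold change was 0.33 (SE 0.081, adjusted p = 0.0233, limma). Leaving out 1 library at a time, it was called in 2 of 6 fits, with an adjusted p of up to 0.0943 without DMSO replicate 1, and in 10 of the 11 other settings.

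In Pb *Fcgr2b* was at 62.7, 65.6 and 62.3 RPKM with DMSO and at 52.8, 62.9 and 54.0 RPKM with GSK343. The groups overlapped, and the log2 fold change of -0.17 was not called (95% confidence interval -0.35 to 0.01, adjusted p = 0.201, limma). Without the replicate 2 libraries it was -0.23 and was called (adjusted p = 0.0368). The effects in Pb and actB differed by -0.50 (SE 0.11), with an adjusted p of 0.123. With the replicate block, that is, with the replicate number as a term, the difference was called (adjusted p = 0.0360), as it was without the replicate 2 libraries (-0.65, adjusted p = 0.0184).

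None of the activating receptors was called with GSK343. *Fcgr3*, the gene of the low-affinity activating receptor FcγRIII, was at 2.72, 3.28 and 2.82 RPKM with DMSO and 3.94, 3.93 and 3.67 RPKM with GSK343 in actB. These groups did not overlap, and the log2 fold change was 0.36 (95% confidence interval 0.01 to 0.71, adjusted p = 0.185, limma). In Pb it was 0.15 (-0.20 to 0.50, adjusted p = 0.620). *Fcgr4*, the gene of another activating receptor for IgG, differed by -0.52 in actB (-1.34 to 0.29, adjusted p = 0.441) and by -0.35 in Pb (-1.17 to 0.47, adjusted p = 0.611), both with overlapping groups. *Fcgr1*, the gene of the high-affinity receptor FcγRI, had 0 to 3 reads in each cultured library, too few to show a difference between the treatments at this depth.

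In the cultures the level of *Fcgr3* followed that of *Fcgr2b*, with which it shares sequence. The ratio of *Fcgr2b* to *Fcgr3* in RPKM was 47.0 ± 1.3 in actB and 46.3 ± 3.3 in Pb with DMSO, and 45.1 ± 3.4 in actB and 36.8 ± 5.9 in Pb with GSK343 (SD, n = 3), whereas it was 8.21 and 12.1 in the nB libraries. How many of the reads listed under *Fcgr3* came from *Fcgr2b* was not tested, and the values of *Fcgr3* in the cultures are uncertain for that reason.

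**Figure D3:**
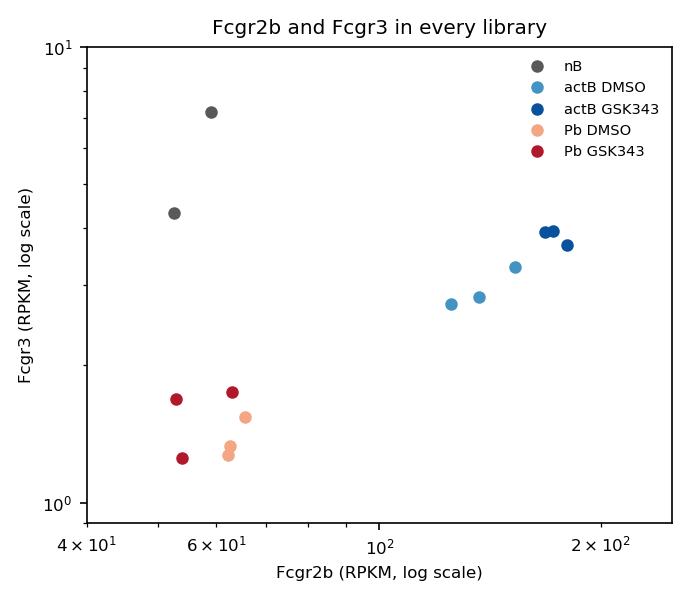
*Fcgr3* against *Fcgr2b* in RPKM, both on log axes, with 1 point per library coloured by group. The DMSO libraries of actB and Pb have ratios of *Fcgr2b* to *Fcgr3* between 42.6 and 49.1, and the nB libraries have ratios of 8.21 and 12.1.

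The Fc receptor-like genes responded to GSK343 unequally. *Fcrl1*, a B cell surface protein that can enhance signalling by the B cell receptor, was at 33.9, 31.9 and 34.5 RPKM in Pb with DMSO and at 17.4, 19.8 and 19.4 RPKM with GSK343. All GSK343 libraries stood below all DMSO libraries. The log2 fold change was -0.82 (SE 0.095, adjusted p = 0.000323, limma), a level lower by 1.77 times in the means, and was called under all 17 other settings. In actB it was at 92.5, 117.8 and 94.4 RPKM with DMSO and 71.4, 86.0 and 73.0 RPKM with GSK343, and again the groups did not overlap. The log2 fold change there was -0.40 (SE 0.095, adjusted p = 0.0209), which was not called with quantile normalization (adjusted p = 0.0528), with the actB groups alone (0.137), or without GSK343 replicate 1 or 3 (0.0785 and 0.0817). The effects in Pb and actB differed by -0.42 (95% confidence interval -0.72 to -0.13, adjusted p = 0.294), and without the replicate 2 libraries by -0.52 (adjusted p = 0.0232).

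*Fcrl5*, which encodes a receptor with both activating and inhibitory motifs, was at 14.2, 15.7 and 14.3 RPKM in Pb with DMSO and at 8.44, 11.0 and 9.65 RPKM with GSK343. The groups did not overlap, and the log2 fold change was -0.60 (SE 0.088, adjusted p = 0.00133, limma), called under all 17 other settings. In actB the level was 74.7, 80.1 and 81.2 RPKM with DMSO and 90.6, 81.6 and 90.9 RPKM with GSK343, a log2 fold change of 0.16 (95% confidence interval -0.04 to 0.35, adjusted p = 0.312). The groups were separate by a margin of 81.2 against 81.6 RPKM. The effect in Pb minus that in actB was -0.75 (SE 0.12, adjusted p = 0.0347), and this call ended in 10 of 12 fits on leaving out 1 library at a time (adjusted p up to 0.122, log2 difference -0.84 to -0.66) and with no filter on expression, median scaling or the cultured groups alone (adjusted p = 0.0558, 0.0552 and 0.0563).

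*Fcrla*, which encodes a relative that stays inside the cell, showed the narrowest intervals. Its level in Pb was 39.6, 39.7 and 39.9 RPKM with DMSO and 41.0, 37.6 and 39.9 RPKM with GSK343. In actB it was 45.2, 48.7 and 47.2 RPKM with DMSO and 42.8, 46.8 and 46.1 RPKM with GSK343. The groups overlapped in both cell types, and the log2 fold change was -0.06 in actB (95% confidence interval -0.16 to 0.05, adjusted p = 0.529, limma) and -0.0091 in Pb (-0.11 to 0.09, adjusted p = 0.937).

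Markers of the stage moved in Pb together with *Fcrl1* and *Fcrl5*. Of the 5 B cell markers, 2 were lower with GSK343: *Pax5*, a transcription factor gene of B cell identity, fell from 29.1 to 13.8 RPKM (log2 fold change -1.11, SE 0.18, adjusted p = 0.00220, limma), and *Ms4a1*, which encodes CD20, from 60.9 to 39.8 RPKM (-0.63, SE 0.11, adjusted p = 0.00369). The sum of the 5 was 903.4 to 925.7 RPKM with DMSO and 745.3 to 877.4 RPKM with GSK343. Of the 5 plasmablast markers, *Sdc1*, which encodes the sort marker CD138, rose from 29.7 to 55.3 RPKM (0.89, SE 0.11, adjusted p = 0.000575), and *Irf4*, a transcription factor gene of plasma cells, fell from 371.9 to 312.9 RPKM (-0.25, SE 0.063, adjusted p = 0.0225). In actB none of the 5 B cell markers was called, while 2 of the 5 plasmablast markers were higher with GSK343: *Jchain*, which encodes the joining chain of secreted IgM, rose from 177.4 to 230.7 RPKM (0.37, SE 0.095, adjusted p = 0.0277), and *Sdc1* from 0.665 to 0.965 RPKM (0.41, SE 0.11, adjusted p = 0.0422). The part of these shifts in the falls of *Fcrl1* and *Fcrl5* was not tested.

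**Figure D4:**
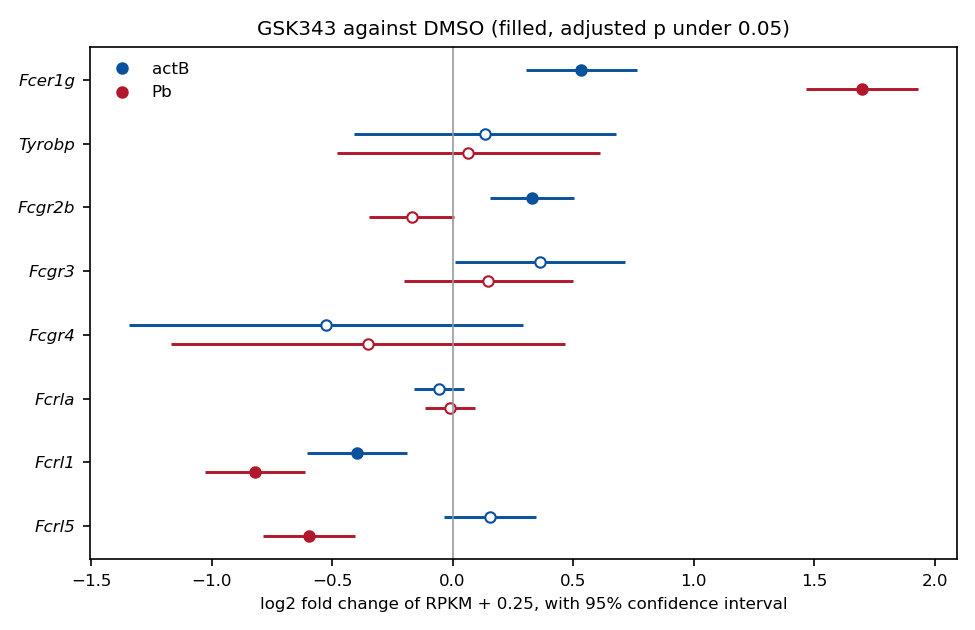
Log2 fold change of RPKM + 0.25 with GSK343 against DMSO for the 8 genes tested, in actB (blue) and Pb (red), with 95% confidence intervals; filled points passed an adjusted p under 0.05. *Fcer1g* in Pb (1.70) lies apart from its value in actB (0.53), and *Fcrl5* lies below 0 in Pb (-0.60) and above it in actB (0.16).

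Without the drug, the 9 genes took different courses from nB to actB. The adaptors nearly vanished, *Fcrla* and *Fcrl1* fell, and *Fcgr2b* and *Fcrl5* rose. All 8 genes tested were called in actB against nB, 3 higher and 5 lower, where 77.2% of all genes tested were called, 40.9% higher and 36.3% lower. The median log2 fold change was -0.91 over the 8 genes and 0.05 over all genes tested.

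*Tyrobp* was at 111.2 and 132.8 RPKM in nB, with a mean at or above that of 96.5% of the genes tested, and at 2.02, 2.05 and 1.82 RPKM in actB with DMSO. Its group mean in nB was 62.2 times that in actB (log2 fold change -5.78, SE 0.28, adjusted p = 1.30e-09, limma). *Fcer1g* was at 39.97 and 43.41 RPKM in nB, 29.1 times its mean in actB (-4.64, SE 0.12, adjusted p = 5.78e-12). *Fcgr1* was at 0.752 and 1.29 RPKM in nB, from 50 to 85 reads, against 0 to 3 reads in each cultured library, and was called lower in a fit without the filter on expression (adjusted p = 1.19e-07). For these genes nB and the cultured libraries did not overlap.

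Myeloid transcripts fell between the same groups. The 18 myeloid markers summed to 273.0 and 364.0 RPKM in nB and to 10.6 to 12.4 RPKM in actB with DMSO. Of the 14 tested, 13 were lower in actB, where 36.3% of all genes tested were, with a median log2 fold change of -5.45. A mean of at least 1 RPKM was reached by 14 of the 18 in nB and by 2 in actB. Most thus passed the filter through nB, which favours a lower level in actB. In nB *Lyz2* was at 152.0 and 180.4 RPKM, *Csf1r* at 9.15 and 16.8 RPKM, *Adgre1* at 6.21 and 11.2 RPKM and *S100a8* at 11.2 and 13.4 RPKM, and no marker of the list was at 0. In actB with DMSO 7 of the 18 had no reads, *S100a8* among them, while *Itgam* was at 4.27 RPKM, beside 4.02 RPKM in nB. The 10 T and NK cell markers summed to 35.7 to 38.7 RPKM in nB and to 1.09 to 1.99 RPKM in actB with DMSO, and all 10 were lower in actB. All 10 had a mean of at least 1 RPKM in nB and 0 had in actB, so they passed the filter through nB and this direction was set by it. The part of these cells in the levels of *Fcer1g*, *Tyrobp*, *Fcgr1*, *Fcgr3* and *Fcgr4* in nB was not tested. Within nB, replicate 3 held more than the other library of the myeloid sum, *Fcgr1*, *Fcgr3* (7.18 against 4.33 RPKM) and *Fcgr4* (2.69 against 1.42 RPKM).

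*Fcgr2b* rose from 52.6 and 58.9 RPKM in nB to 125.2 to 152.9 RPKM in actB with DMSO (log2 fold change 1.30, SE 0.090, adjusted p = 3.98e-08, limma). *Fcrl5* rose more, from 15.8 and 14.1 RPKM to 74.7 to 81.2 RPKM, 5.26 times in the means (2.38, SE 0.098, adjusted p = 3.07e-10). In both cases nB lay below every actB library. *Fcgr4* was at 3.11, 7.13 and 3.53 RPKM in actB, and its log2 fold change of 1.03 (SE 0.42, adjusted p = 0.0391) was not called in 6 of 16 other settings, among them the fits without actB DMSO replicate 2 (0.68, adjusted p = 0.138) and without the merged nB library (0.63, adjusted p = 0.310).

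*Fcrla* was at 197.8 and 198.7 RPKM in nB, the highest mean of the 9 genes there, and fell 4.22 times to 45.2 to 48.7 RPKM in actB (log2 fold change -2.07, SE 0.053, adjusted p = 6.20e-12, limma). *Fcrl1* was at 194.3 ± 8.1 RPKM in nB (SD, n = 2) and at 92.5 to 117.8 RPKM in actB (-0.94, SE 0.11, adjusted p = 4.08e-06). *Fcgr3* was lower in actB by 0.87 on the log2 scale (log2 fold change -0.87, SE 0.18, adjusted p = 0.000711). Its nB range of 4.33 to 7.18 RPKM lay above the 2.72 to 3.28 RPKM of actB.

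**Figure D5:**
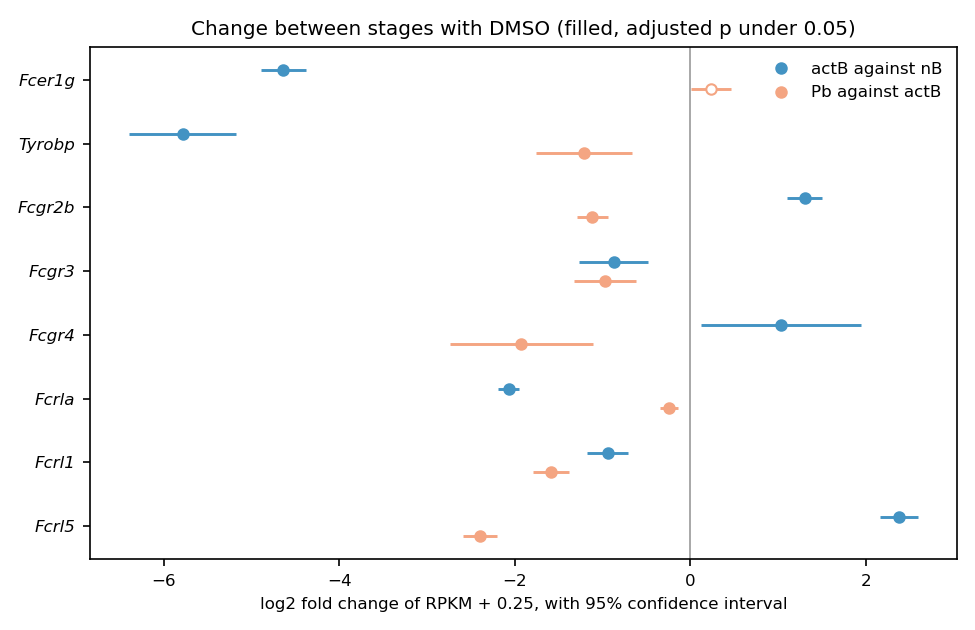
Log2 fold change of RPKM + 0.25 between stages with DMSO for the 8 genes tested, actB against nB (blue) and Pb against actB (orange), with 95% confidence intervals; filled points passed an adjusted p under 0.05. *Fcgr2b* (1.30 and -1.12) and *Fcrl5* (2.38 and -2.40) lie on opposite sides of 0, and the change of *Fcer1g* from actB to Pb (0.23) was not called.

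From actB to Pb with DMSO, 7 of the 8 genes tested fell and none rose, where 69.7% of all genes tested were called, 27.3% higher and 42.4% lower. The median log2 fold change was -1.17 over the 8 genes and -0.12 over all genes tested. *Fcrl5* fell most, from 74.7 to 81.2 RPKM in actB to 14.2 to 15.7 RPKM in Pb (log2 fold change -2.40, SE 0.088, adjusted p = 2.66e-10, limma). *Fcgr4* (-1.93, SE 0.38), *Fcrl1* (-1.59, SE 0.095), *Tyrobp* (-1.21, SE 0.25) and *Fcgr2b* (-1.12, SE 0.081) followed, with adjusted p-values of 0.000851 or less. *Fcgr3* fell by 0.97 (log2 fold change -0.97, SE 0.16, adjusted p = 0.000160), and *Fcrla*, from 45.2 to 48.7 RPKM to 39.6 to 39.9 RPKM, by 0.24 (-0.24, SE 0.048, adjusted p = 0.000625). None of these 7 calls was lost under any of the 17 other settings. *Fcer1g* was the exception: it was at 1.31 to 1.61 RPKM in actB and 1.68 to 1.78 RPKM in Pb, and its log2 fold change of 0.23 (SE 0.11, adjusted p = 0.0660) was called with median scaling (0.35, adjusted p = 0.00906), with quantile normalization (0.31, adjusted p = 0.0218) and without actB DMSO replicate 1 (0.31, adjusted p = 0.0341).

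Over the whole course, Pb with DMSO against nB, 5 of the 8 genes were lower, where 80.6% of all genes tested were called, 39.5% higher and 41.1% lower. *Tyrobp* differed most (log2 fold change -7.00, SE 0.28, adjusted p = 1.19e-10, limma), from 111.2 and 132.8 RPKM to 0.433 to 0.935 RPKM. *Fcrl5* was back at its nB level, with 14.2 to 15.7 RPKM in Pb and 14.1 and 15.8 RPKM in nB (-0.02, 95% confidence interval -0.23 to 0.19, adjusted p = 0.850). *Fcgr2b* was at 62.3 to 65.6 RPKM in Pb and 52.6 and 58.9 RPKM in nB, and its log2 fold change of 0.19 was not called (adjusted p = 0.0696), though it was with the replicate block (adjusted p = 0.0324), without the replicate 2 libraries of the cultures (0.17, adjusted p = 0.0316) and without nB replicate 3 (0.27, adjusted p = 0.0477), and in 3 other settings. *Fcgr4* (-0.89, adjusted p = 0.0670) was likewise called with the replicate block (-0.95, adjusted p = 0.0130), without the replicate 2 libraries of the cultures (-1.18, adjusted p = 0.00250), without Pb DMSO replicate 2 alone (-1.18, adjusted p = 0.0257), without the merged nB library (-1.30, adjusted p = 0.0455) and with the compared groups alone (adjusted p = 0.0434).

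The make-up of the gene set changed accordingly. Of the summed RPKM of the 9 genes in nB, *Fcrla* made up 31.2%, *Fcrl1* 30.6%, *Tyrobp* 19.2% and *Fcgr2b* 8.76%. In actB with DMSO, *Fcgr2b* made up 36.7%, *Fcrl1* 26.9% and *Fcrl5* 21.0%, and in Pb with DMSO *Fcgr2b* made up 40.6%, *Fcrla* 25.4% and *Fcrl1* 21.4%. *Fcer1g* made up 1.10% in Pb with DMSO (1.08% to 1.13% over libraries) and 4.66% with GSK343 (3.83% to 5.69%). Per length, the activating receptors stood below their adaptor in Pb. With GSK343 *Fcgr3* stood at 0.256 ± 0.060 and *Fcgr4* at 0.125 ± 0.084 times *Fcer1g* in RPKM, against 0.797 ± 0.057 and 0.575 ± 0.252 with DMSO (SD, n = 3).

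In the order of its group means, *Fcer1g* ran from nB over Pb with GSK343, actB with GSK343 and Pb with DMSO to actB with DMSO, and no neighbours in that order overlapped. For *Fcrl1*, which ran from nB over actB with DMSO, actB with GSK343 and Pb with DMSO to Pb with GSK343, no neighbours overlapped either. For *Fcgr2b*, highest in actB with GSK343, Pb with DMSO overlapped Pb with GSK343, and the latter overlapped nB. For *Tyrobp* the treatments overlapped within actB and within Pb, and for *Fcgr4* every pair of neighbours overlapped.

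Genes with a like course over the 5 group means were sought among all genes tested, by the root mean square difference of centred log2 levels. The nearest to *Fcer1g* was *Plk2*, which encodes a polo-like kinase, at 0.40 log2 units (29.3 RPKM in nB, 1.83 in actB and 1.59 in Pb with DMSO, 1.94 in actB and 3.20 in Pb with GSK343), followed by *Cyp4f16* at 0.45 and *Cyp27a1* at 0.45. *Tyrobp* was nearest to *Nr4a1*, an immediate early gene, at 0.16, then *Icosl* at 0.34 and *I830077J02Rik* at 0.40. For *Fcgr2b* they were *Snord12* at 0.07, *Ift57* at 0.09 and *Mid1* at 0.10. For *Fcrl1* they were *Cnn2* at 0.12, *Stat6* at 0.14 and *Stap1* at 0.16, and for *Fcrl5* they were *Tha1* at 0.14, *Gatm* at 0.24 and *Cdhr2* at 0.29. For *Fcrla*, *Fcgr3* and *Fcgr4* the nearest were *Fsip1* at 0.05, *Sorcs2* at 0.03 and *Gimap4* at 0.16.

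The promoters of *Fcer1g*, *Fcrl1* and *Fcrl5*, the genes called with GSK343 in Pb, are shown because these genes moved with the drug, and a window of the *Fcgr2b* promoter because that gene was the most abundant in the cultures. They come from RefSeq (GRCm38.p6), read along the gene's strand from 250 bases before to 50 bases after its start, and 8 of the 9 genes matched an entry; *Tyrobp* did not. Capitals mark GAGGAA, a core bound by the ETS factor PU.1, and GGAA followed after 2 bases by GAAA, a joint site of ETS and IRF factors, on either strand. Both hold the letters GGAA and can therefore overlap. The motifs were chosen after the sequences had been seen.
Fcer1g (chr1:171234300-171234599, minus strand): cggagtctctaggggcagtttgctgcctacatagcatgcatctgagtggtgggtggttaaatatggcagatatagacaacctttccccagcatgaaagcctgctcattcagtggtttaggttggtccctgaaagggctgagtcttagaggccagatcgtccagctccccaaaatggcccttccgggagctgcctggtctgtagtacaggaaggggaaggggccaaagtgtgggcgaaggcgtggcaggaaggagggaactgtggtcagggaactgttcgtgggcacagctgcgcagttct
Fcrl1 (chr3:87376137-87376436, plus strand): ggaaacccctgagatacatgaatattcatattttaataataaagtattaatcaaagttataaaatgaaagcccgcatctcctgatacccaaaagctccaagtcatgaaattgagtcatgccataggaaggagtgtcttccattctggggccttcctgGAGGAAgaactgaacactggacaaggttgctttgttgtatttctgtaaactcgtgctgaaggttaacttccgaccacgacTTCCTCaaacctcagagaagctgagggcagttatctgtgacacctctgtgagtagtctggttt
Fcrl5 (chr3:87435532-87435831, plus strand): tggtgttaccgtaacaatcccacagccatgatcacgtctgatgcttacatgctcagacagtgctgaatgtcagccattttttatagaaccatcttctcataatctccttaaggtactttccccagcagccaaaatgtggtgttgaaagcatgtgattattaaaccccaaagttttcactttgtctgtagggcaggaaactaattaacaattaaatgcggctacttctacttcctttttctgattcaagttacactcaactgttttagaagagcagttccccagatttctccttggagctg
Fcgr2b (chr1:170976082-170976121, minus strand): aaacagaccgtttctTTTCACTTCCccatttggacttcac

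GAGGAA was found in 5 of the 8 promoters, those of *Fcrla*, *Fcgr4*, *Fcgr3*, *Fcgr1* and *Fcrl1*, where 28.3% of 27025 RefSeq promoters of the same length hold it. The joint site was found in that of *Fcgr2b*, where 2.79% of promoters hold it. The windows of *Fcer1g* and *Fcrl5* held neither set of letters. The genes with GAGGAA included both genes that are myeloid receptors and B cell genes, and *Fcrl1*, with 2 matches, was the only one of them called with GSK343. In the other GAGGAA promoters 1 match each lay within 55 bases before the start, as these windows show with the match in capitals.
Fcgr3 (chr1:171059389-171059424, minus strand): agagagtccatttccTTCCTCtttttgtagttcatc
Fcgr4 (chr1:171018889-171018924, plus strand): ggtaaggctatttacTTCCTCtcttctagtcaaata
Fcgr1 (chr3:96294004-96294039, minus strand): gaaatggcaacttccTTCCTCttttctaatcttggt
Fcrla (chr1:170927600-170927635, minus strand): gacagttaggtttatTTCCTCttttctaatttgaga

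Genes related to these receptors or their signalling were counted by list. Of 11 other Fc receptors and relatives, 8 were tested. *Fcer2a*, which encodes the low-affinity IgE receptor CD23, was lower with GSK343 in actB (77.7 to 42.6 RPKM, log2 fold change -0.91, SE 0.25, adjusted p = 0.0373, limma) and in Pb (5.13 to 1.66 RPKM, -1.56, SE 0.25, adjusted p = 0.00217). *Fcmr*, which encodes the IgM receptor, was lower in Pb (11.6 to 7.47 RPKM, -0.59, adjusted p = 0.0388). These were the only 2 of the 8 called in Pb, and in actB *Fcgrt*, which encodes the neonatal Fc receptor, was the only one higher (0.800 to 1.31 RPKM, 0.57, adjusted p = 0.0163). From nB to actB, 5 of the 8 fell and 2, *Fcrlb* and *Ms4a2*, rose, where 36.3% of all genes tested fell and 40.9% rose. *Fcmr* fell from 686.6 to 12.03 RPKM.

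Of the 7 other ITAM and related adaptors, among them *Cd79a* and *Cd79b* of the B cell receptor, none was called with GSK343 in actB or Pb by limma. Over all genes tested 10.4% were called in actB and 12.9% in Pb. All 7 were lower in actB than in nB, where 36.3% of all genes tested were. Of these, *Cd3e*, *Cd3d* and *Cd3g* passed the filter through nB alone. Of 27 receptors that signal through the *Fcer1g* or *Tyrobp* products, 14 were tested; with GSK343, *Pira2*, of a family of near-identical copies whose reads may be split between them, was higher in actB (1.10 to 1.58 RPKM, 0.44, adjusted p = 0.0260), and *Plxna1*, which encodes a semaphorin receptor, was lower in Pb (14.3 to 10.2 RPKM, -0.48, adjusted p = 0.0292). In actB against nB, 13 of the 14 were lower and *Plxna1* was higher, where 36.3% of all genes tested were lower and 40.9% higher. *Sirpb1a*, a signal-regulatory protein gene, had a mean of 6.53 RPKM in nB and no reads in the cultures. Genes like it pass the filter through nB alone and can only be lower in actB.

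Of the kinases and adaptors downstream of ITAMs, 36 of 37 were tested. In actB 7 were higher with GSK343 and none lower, and in Pb 5 were higher and 7 lower, with medians of 0.15 and 0.00084 on the log2 scale. *Fgr*, a Src-family kinase gene, rose in actB from 2.22 to 5.51 RPKM (log2 fold change 1.24, adjusted p = 0.000507, limma), and *Fyn*, of the same family, rose in Pb from 20.9 to 36.1 RPKM (0.78, adjusted p = 0.000126). *Fyn*, *Lyn*, *Syk*, *Dok1* and *Pik3r1* were also higher in actB, with log2 fold changes of 0.19 (*Syk*, 135.7 to 154.4 RPKM) to 0.43 (*Fyn*, 17.0 to 22.9 RPKM). Those lower in Pb were *Lat2*, *Prkcb*, *Sos1*, *Pik3cd*, *Vav1*, *Vav2* and *Btk*, from -0.66 (*Lat2*, 40.2 to 25.4 RPKM) to -0.24 (*Vav1*, 35.0 to 29.7 RPKM). The effect on *Lat2*, an adaptor gene, differed between Pb and actB (-0.79, SE 0.12, adjusted p = 0.0279, limma). It was the only one of the 36, where 0.248% of all genes tested were called.

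Of 17 inhibitory receptors and phosphatases, the partners of *Fcgr2b*, none was called with GSK343 in actB, and in Pb *Cd5* was higher (0.063 to 0.268 RPKM, log2 fold change 0.73, adjusted p = 0.0181) and 2 were lower. The latter were *Pecam1*, which encodes CD31 (10.2 to 7.01 RPKM, log2 fold change -0.52, adjusted p = 0.0116, limma), and *Siglecg*, a sialic acid-binding receptor gene (11.9 to 8.87 RPKM, -0.42, adjusted p = 0.0114). From actB to Pb with DMSO, 12 of the 17 fell, where 42.4% of all genes tested did. The largest falls were of *Pirb* (9.52 to 0.448 RPKM, -3.81) and *Cd22* (226.6 to 18.1 RPKM, -3.62), which encode ITIM receptors.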

How the data were processed

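RNA from 500 ng of total RNA per library was captured on poly(A) beads, prepared with a stranded kit and sequenced as paired ends of 50 bases. Per the study's methods and the submitters' processing notes, the authors mapped reads to mm9 with TopHat2 and counted reads over the exons of Entrez genes; whether the counting used strand is not given in the sources used here. The deposited values are RPM, reads scaled to library depth, with the gene's length, although the table is named for RPKM. Every value was a whole multiple of 1 read (100% of values, tolerance 0.1 read), and reads were recovered from these steps; 3 reads equal 0.114 to 0.154 RPM. Reads in 92 genes without a symbol, at most 0.09% of a library, were left out. RPKM was computed as RPM per kilobase of the deposited length.

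Genes with at least 1 RPKM in at least 3 of the 15 deposited columns were tested with limma 3.58.1 (R 4.3.3) on log2(RPKM + 0.25), with a variance trend, all 5 groups (14 libraries, 9 residual degrees of freedom) and Benjamini-Hochberg adjustment over the 11299 genes. The scripts were tested on simulated data. Nothing in the labels says that libraries of a group came from separate mice or cultures, so p-values measure the spread between these libraries.

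Deviations from group means correlated between same-numbered libraries of cultured groups with r of 0.158 to 0.502, 0.435 to 0.713 and 0.219 to 0.356 for numbers 1, 2 and 3 (6 pairs each). For different numbers r was -0.603 to 0.370 (36 pairs). Only number 2 lay wholly above that range, and its libraries stood apart in every cultured group. The correlations thus do not show that the libraries of numbers 1 and 3 are paired. A replicate block, edgeR 4.0.16 on recovered reads (11146 genes), other pseudocounts, filters and scalings, and leaving out each library were alternatives; leaving out the number 2 libraries of all cultured groups was added after the data were seen. DESeq2 was not run.

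The genes, gene lists and comparisons were chosen with earlier results of these data known. All 9 genes are named; from the other lists, the 2 called genes with the largest change per comparison and at least 2 RPKM in a group compared, and, per gene, the 3 with the most similar course. Other called genes of a list that are named where the count is small were named after their values were seen.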

Additional observations from a re-analysis of the deposited data

Results flagged for a closer look

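The effect of GSK343 on *Fcer1g* differed between cell types. It was 1.70 in Pb and 0.53 in actB on the log2 scale, a difference of 1.165 (adjusted p = 0.0272, limma interaction), with *Fcer1g* higher in 3 of 3 same-numbered pairs in both cell types. This difference was called in only 4 of 12 fits that left out 1 library.

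The effect on *Fcrl5* differed as well, at -0.60 in Pb and 0.16 in actB, a difference of -0.75 (adjusted p = 0.0347, limma interaction). *Fcrl5* was lower in 3 of 3 same-numbered pairs in Pb and higher in 3 of 3 in actB. In actB the smallest ratio within a pair was 1.02, and the effect was not called (adjusted p = 0.312, limma). The difference was called in only 2 of 12 fits that left out 1 library. If the label of IL6 holds, cell type and cytokine cannot be told apart in either difference.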

How the results depend on the processing

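In Pb, the calls of *Fcer1g*, *Fcrl1* and *Fcrl5* with GSK343 held under all 17 other settings. The number of the 8 genes called with GSK343 in actB was 3, and 1 with the compared groups alone; leaving out 1 library gave 1 to 3. For the difference between the effects it was 2, but 1 with no filter, median scaling or the compared groups alone, 4 without the number 2 libraries, and 0 to 3 leaving out 1 library. With the replicate block, the genes called rose from 1170 to 2248 in actB, from 1458 to 2626 in Pb and from 28 to 139 for the difference, and the block changed no member's call beside those given with *Fcgr2b* and *Fcgr4*. The compared groups alone gave 386 genes in actB and 4 for the difference, where quantile normalization gave 18, the 15 columns as deposited 48 and leaving out the number 2 libraries 146; leaving out 1 library gave 0 to 58 there, 608 to 1363 in actB and 690 to 1304 in Pb. The causes were not tested.

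Signs turned only where nothing was called. *Tyrobp* was at -0.0060 in actB with quantile normalization, and in Pb at -0.22 to 0.32 leaving out 1 library and -0.46 without the number 2 libraries; its difference was 0.011 with quantile normalization and -0.36 to 0.18 leaving out 1 library. *Fcrla* in Pb was at 0.0075 with quantile normalization, 0.027 without the number 2 libraries and -0.037 to 0.027 leaving out 1 library. The difference for *Fcgr4* was -0.18 to 0.46 leaving out 1 library and -0.093 without the number 2 libraries. *Fcrl5* in Pb against nB was at 0.018 with median scaling, 0.037 with quantile normalization and -0.10 to 0.060 leaving out 1 library. Depth limits *Tyrobp* and *Fcgr1* in the cultures, with 5 to 39 and 0 to 3 reads per library.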
